A study of Ovis aries with 3 samples.

Results

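The 8 genes described here are the most abundant unnamed protein-coding entries in RNA from extracellular vesicles of the sheep conceptus. They were chosen from 4425 rows that carry an Ensembl identifier, no gene symbol and the bare description "Uncharacterized protein", out of 25197 rows in all, as the 8 with the highest mean over the 3 libraries. By falling mean they are ENSOARG00000001948, ENSOARG00000019903, ENSOARG00000008767, ENSOARG00000005816, ENSOARG00000008759, ENSOARG00000007414, ENSOARG00000018519 and ENSOARG00000016963. Their levels were therefore fixed by the choice and are given as a description, with no test.

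Vesicles came from sheep (Ovis aries) conceptuses of day 14 of pregnancy, each intact conceptus having been held for 24 h in its own dish of 10 ml medium with 10% fetal bovine serum depleted of exosomes. The single group held 3 libraries with no treatment, no genotype and no control group, so no comparison between conditions was possible. Libraries are numbered 1 to 3 in the order of the labels. The libraries are titled by bare numbers, and the labels do not say whether these stand for animals, so technical spread and spread between animals cannot be told apart. Values are RPKM-type, meaning reads scaled for gene length and library depth. A share below is a share of the summed RPKM-type value of a library and not of its reads.

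The conceptus of day 14, the embryo with its membranes, is in the phase of elongation, in which the trophectoderm grows into a filament and secretes interferon tau, the signal that maintains pregnancy in ruminants. Extracellular vesicles are membrane-bound particles that cells release and that can carry RNA and protein. An uncharacterized entry is a gene model that an annotation pipeline predicted to encode a protein but that had received no name. It is a state of the annotation and not a kind of gene, and a well known gene in another species can stand behind it.

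Each of the 8 descriptions points to an entry of UniProtKB/TrEMBL, the unreviewed section of the protein database UniProt. The entries are W5NV54 for ENSOARG00000001948, W5QF72 for ENSOARG00000019903, W5PG46 for ENSOARG00000008767 and W5P732 for ENSOARG00000005816. They are W5PG35 for ENSOARG00000008759, W5PC00 for ENSOARG00000007414, W5QAY7 for ENSOARG00000018519 and W5Q675 for ENSOARG00000016963. Each of these entries was cited by 1 row of the table, so none of the 8 was a declared copy of another row. The same held for 4342 of the 4425 uncharacterized rows, so it does not set the 8 apart. The sheep RefSeq gene table of assembly ARS-UI_Ramb_v3.0, with 35057 genes, holds no Ensembl identifiers, so a search for the 8 identifiers could only find 0. A search for the 8 UniProt entries also found 0, and nothing about the genes is read from either search. Coordinates, gene structures and sequences of the 8 genes were not analysed here, and no function is assigned to them.

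Libraries differed in scale. The summed values were 17480.7, 40060.3 and 9531.8 in libraries 1, 2 and 3, a highest total 4.20 times the lowest, while depth estimated from copies of the U6 small nuclear RNA differed less, with libraries 1 and 3 at 1.29 and 1.22 times library 2. Of the genes fixed as markers, 3 of 6 trophectoderm genes in the table reached a value of 1 in all 3 libraries, with summed levels of 38.0, 178.3 and 37.4. So did 3 of 4 uterine epithelium genes (54.1, 154 and 7.4), 2 of 6 extraembryonic endoderm genes (8.7, 26.1 and 9.6) and 1 of 4 vesicle marker genes (9.5, 34.4 and 3.4). Of 5 leukocyte genes (2, 5.7 and 4.4) and 4 erythroid genes (0.9, 1.4 and 0.8), 0 did. No marker in the table was at 0 in all 3 libraries, and KRT18, UTMP, CST3 and CD63 matched no row. Each of these sums was highest in library 2, as were the 8 unnamed genes.

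All 8 unnamed genes were present in every library. None had a value of 0, and all 8 reached at least 1 in each library, as 3.89% of all rows and 3.95% of the 4425 uncharacterized rows did. At a threshold of 10 the count was still 8 of 8, against 0.325% of all rows and 0.52% of the uncharacterized ones. At 50 it was 3 of 8, namely ENSOARG00000001948, ENSOARG00000019903 and ENSOARG00000016963, against 0.0238% of all rows and 0.0678% of the uncharacterized ones. The mean that chose these genes uses the same values, so nothing is read from these counts.

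ENSOARG00000001948 had the highest mean of the whole table. It stood at 1179.3, 2841.6 and 180.2 in libraries 1, 2 and 3, with a mean of 1400 ± 1344 (SD, n = 3). It ranked 2nd, 1st and 1st of all rows in the respective libraries and held 6.75%, 7.09% and 1.89% of their summed values. Libraries 1 and 2 were thus alike in share, and library 3 lay far below both.

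ENSOARG00000019903 was close to ENSOARG00000001948 in libraries 1 and 2, slightly above it in library 1 and slightly below it in library 2, and well below it in library 3. Its values were 1237.1, 2719.9 and 69.9, with a mean of 1342 ± 1328 (SD, n = 3). It ranked 1st, 2nd and 5th and held 7.08%, 6.79% and 0.733% of the summed values. The value in library 2 was 38.9 times that in library 3, the widest range of the 8 genes. The ratio of ENSOARG00000001948 to ENSOARG00000019903 was 0.953 and 1.05 in libraries 1 and 2 and 2.58 in library 3.

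For scale, the iron storage gene FTH1, the highest row with a symbol, stood at 146.9, 674.3 and 132. ENSOARG00000001948 exceeded it 8.03-fold, 4.21-fold and 1.36-fold in libraries 1, 2 and 3. ENSOARG00000019903 exceeded it 8.42-fold and 4.03-fold in libraries 1 and 2 and reached only 0.529 of it in library 3. The lead of this gene over every named row, seen in the means, was therefore not a property of all 3 libraries.

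**Figure D1:**
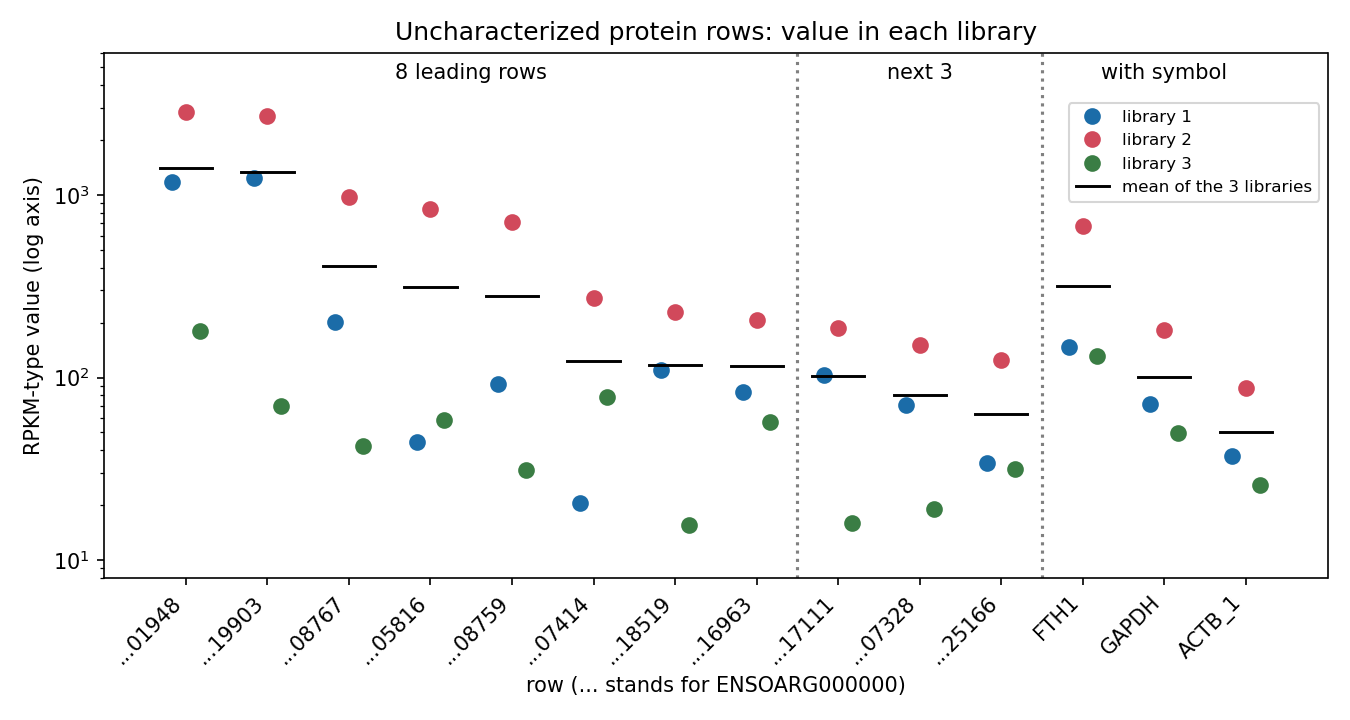
RPKM-type value (log axis) of the 8 leading uncharacterized genes, of the 3 that follow them by mean, and of FTH1, GAPDH and ACTB_1. Points are libraries 1 to 3 and the bar is their mean; library 2 holds the highest point of each of the 8 genes, while the lowest point is library 1 for ENSOARG00000005816 and ENSOARG00000007414 and library 3 for the other 6.

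A second tier of 3 genes followed at a distance, with means between 278 and 408. The mean of ENSOARG00000019903 was 3.29 times that of the next gene, ENSOARG00000008767, the largest step in the order of the 8. ENSOARG00000008767 stood at 201.2, 980.2 and 42.1 (mean 408 ± 502, SD, n = 3), with ranks of 3rd, 3rd and 14th. Its shares of the summed values were 1.15%, 2.45% and 0.442%.

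ENSOARG00000005816 stood at 44.2, 838.7 and 58.3 (mean 314 ± 455, SD, n = 3). It was the 4th highest row of library 2 and the 8th of library 3, but the 51st of library 1. Its shares were 0.253%, 2.09% and 0.612%. The mean rested on library 2, and it was 51.2 without that library.

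ENSOARG00000008759 stood at 91.7, 712.6 and 31.1 (mean 278 ± 377, SD, n = 3), with ranks of 13th, 5th and 24th and shares of 0.525%, 1.78% and 0.326%. Without library 2 the mean was 61.4, and that of ENSOARG00000008767 was 122. In these 3 genes the SD exceeded the mean, and their order by mean is not separated by the spread between libraries. The ratio of ENSOARG00000008767 to ENSOARG00000008759 was 2.19, 1.38 and 1.35, above 1 in each library. The ratio of ENSOARG00000005816 to ENSOARG00000008759 was 0.482, 1.18 and 1.87, so that these genes changed order between libraries.

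The last 3 genes lay close together by mean and differed in profile. ENSOARG00000007414 stood at 20.6, 271.4 and 78.5 (mean 124 ± 131, SD, n = 3). It was the 3rd highest row of library 3 and the 109th of library 1, and its shares were 0.118%, 0.677% and 0.824%. The share was thus lowest in library 1 and highest in library 3, an order found in only 1 other of the 8 genes, ENSOARG00000016963, over a narrower range.

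ENSOARG00000018519 stood at 110, 227.7 and 15.5 (mean 118 ± 106, SD, n = 3), with ranks of 9th, 12th and 46th and shares of 0.629%, 0.568% and 0.163%. It was lowest in library 3, the library in which ENSOARG00000007414 ranked high. The ratio of ENSOARG00000007414 to ENSOARG00000018519 was accordingly 0.187 in library 1, 1.19 in library 2 and 5.07 in library 3.

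ENSOARG00000016963 was the steadiest of the 8 genes. It stood at 83.3, 205.5 and 56.9 (mean 115.2 ± 79.3, SD, n = 3), ranked 15th, 14th and 9th, and held 0.476%, 0.513% and 0.597% of the summed values. Its highest value was 3.61 times its lowest, close to the 3.69 of the glycolytic gene GAPDH and the 3.41 of the actin row ACTB_1. For the other 7 genes the same quotient lay between 13.2 and 38.9.

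The limit of the choice fell within a gradual slope. The last gene inside, ENSOARG00000016963, had a mean of 115.2, and the first outside, ENSOARG00000017111, had 102.4 ± 85.9 (SD, n = 3) with values of 103.3, 187.8 and 16. ENSOARG00000007328 followed at 80.1 and ENSOARG00000025166 at 63.5. Of the 4425 uncharacterized rows, 66 had a mean of 10 or more and 18 a mean of 50 or more, and 1077 were listed at 0 in all 3 libraries. The 8 genes were also the 8 highest uncharacterized rows of library 2. Of the 8 highest in library 1 they made up 6, with ENSOARG00000005816 and ENSOARG00000007414 missing, and of those in library 3 also 6, with ENSOARG00000008759 and ENSOARG00000018519 missing.

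**Figure D2:**
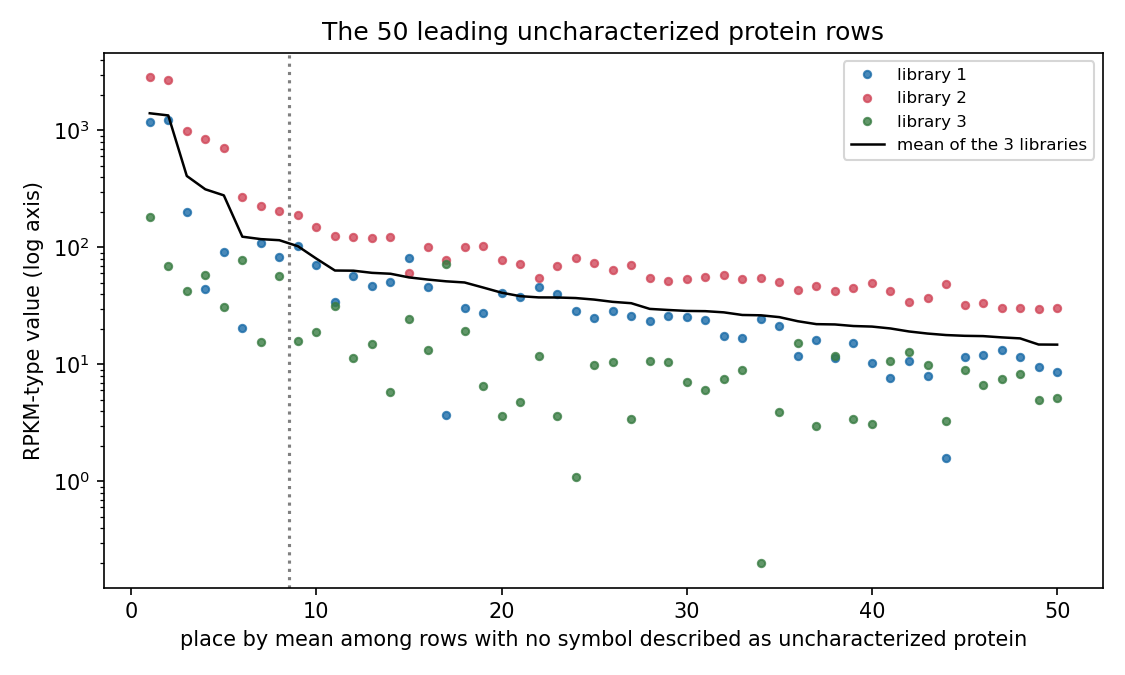
RPKM-type value (log axis) of the 50 uncharacterized rows with the highest mean, in order of mean, with a point for each library and a line for the mean. The dotted line separates the 8 genes described here from the rest; the steps after the 2nd place (1342 to 408) and after the 5th (278 to 124) are larger than that at the limit (115.2 to 102.4).

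The 8 genes jointly took 17.0%, 22.0% and 5.59% of the summed value in the respective libraries (mean 14.8% ± 8.39, SD, n = 3). The leading pair made up 81.4%, 63.2% and 47.0% of what the 8 held. The second tier of 3 held 1.93%, 6.32% and 1.38% of the summed values, and the last 3 held 1.22%, 1.76% and 1.58%. The leading pair held 13.8%, 13.9% and 2.62% of the summed values in libraries 1, 2 and 3. Library 3 thus lay below libraries 1 and 2 mainly through the leading pair. Library 2 lay above library 1 mainly through the second tier, and above library 3 through both, more through the pair.

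The other 4417 uncharacterized rows together held 14.5%, 13.7% and 15.5% of the summed values (mean 14.6% ± 0.918, SD, n = 3). The share of the unnamed rows outside the 8 genes thus varied less between libraries than that of the 8, which the leading rows carried. The share of the last 3 of the 8 had an SD of only 0.273. A sum over many rows evens out single rows, and the choice used these same values, so the spreads are not like for like. Within all uncharacterized rows, the 8 genes took 54.0%, 61.6% and 26.5% of the summed value.

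**Figure D3:**
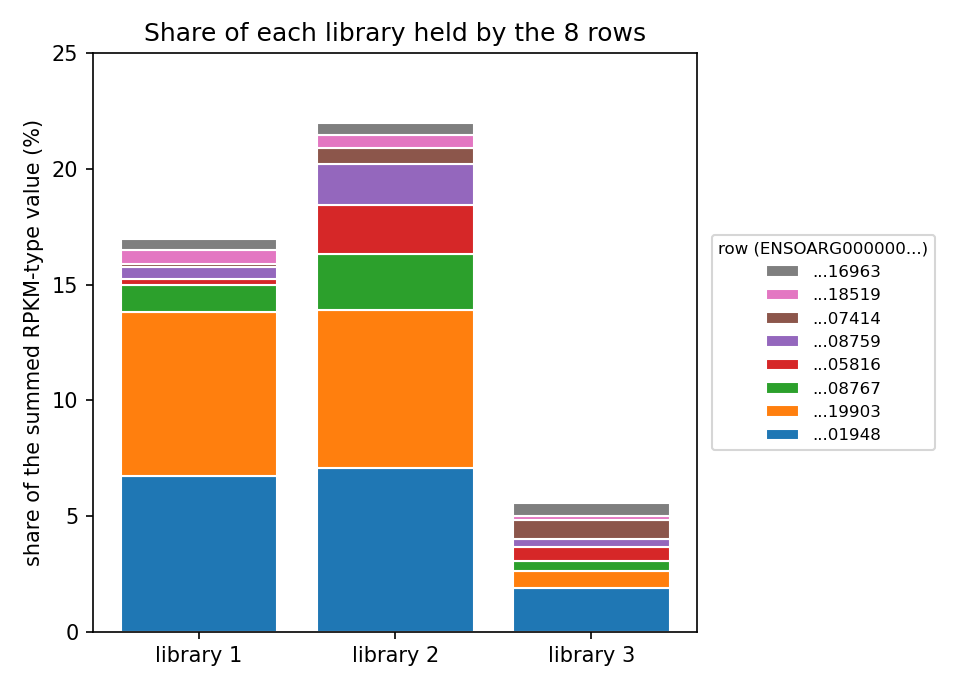
Stacked bars of the share (%) of each library's summed RPKM-type value held by each of the 8 genes. The bars reach 17.0%, 22.0% and 5.59%; the leading pair at the bottom of the bars narrows from libraries 1 and 2 to library 3, and the second tier is widest in library 2.

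Library 2 carried much of every mean. Without it the means were 680 for ENSOARG00000001948, 654 for ENSOARG00000019903, 62.75 for ENSOARG00000018519, 49.55 for ENSOARG00000007414 and 70.1 for ENSOARG00000016963, beside the 3 of the second tier given above.

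The order of the 8 genes was not fixed. Of their 28 pairs, 13 kept the same order in all 3 libraries and 15 did not. ENSOARG00000001948 was above each of the other genes in libraries 2 and 3, and below ENSOARG00000019903 by a small margin in library 1. ENSOARG00000007414 was the 8th of the 8 in library 1, the 6th in library 2 and the 2nd in library 3. ENSOARG00000018519 took the 4th, 7th and 8th places. A comparison of levels between genes is per length as the authors scaled it, and errors in the modelled length of a gene would shift its level in all libraries alike.

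Differences between libraries were then read against the shift shared by other genes, on the scale of log2(value + 1). Over the 981 rows that reached 1 in each library, called detected here, the median difference was 0.98 for library 2 minus 1, -0.20 for library 3 minus 1 and -1.20 for library 3 minus 2. Over the 228 of them with a mean of 10 or more, which are nearer in level to the 8 genes, the medians were 1.37, -1.27 and -2.61. Low rows count as detected only if they reach the threshold in the weakest library, so the higher rows are given beside each difference. Both sets leave out any row below 1 in a library, whatever its mean, so the largest falls can be missing from them.

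Between libraries 1 and 2, the 8 genes fell into 2 sets. ENSOARG00000005816, ENSOARG00000007414, ENSOARG00000008759 and ENSOARG00000008767 were higher in library 2 by 4.22, 3.66, 2.94 and 2.28 on the log2 scale. Of the 227 other rows with a mean of 10 or more, 1, 4, 8 and 20 had larger differences than these respective genes. Without library 2, ENSOARG00000005816 and ENSOARG00000007414 were not among the leading 8. Their high place in this difference is thus partly set by the choice, and nothing is read from it. The other 4 genes had differences between 1.04 and 1.29 and lay just below the median of these rows, by -0.32 to -0.075, but above that of all detected rows, by 0.06 to 0.31. Read against all rows not at 0 in every library, most of them near 0, they lay above the median by 0.94 to 1.19, so the place of these 4 genes depends on the rows used. Library 2 was the highest library for all 8 genes and for 225 of the 228 rows.

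Between libraries 1 and 3, the sets were different. ENSOARG00000019903 had a difference of -4.13 for library 3 minus 1, below that of each of the 980 other detected rows. ENSOARG00000018519 and ENSOARG00000001948 followed with -2.75 and -2.70, where 15 and 17 of the 227 other high rows were lower. ENSOARG00000008767 had -2.23 and ENSOARG00000008759 had -1.53, which were -0.96 and -0.26 from the median of the high rows.

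In the opposite direction, ENSOARG00000007414 was higher in library 3 than in library 1 by 1.88, and 1 of the 227 other high rows had a larger difference. ENSOARG00000005816 was higher by 0.39, with 13 above it. ENSOARG00000016963 had -0.54, which was 0.73 above the median of the high rows but 0.34 below that of all detected rows, so its direction depends on the rows it is read against.

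Between libraries 2 and 3, ENSOARG00000019903 again had the lowest difference of the 8, -5.26, with 1 of the 980 other detected rows below it. The undetected row at 54.4 in library 2 and 0.2 in library 3 fell further here too. ENSOARG00000008767 (-4.51) and ENSOARG00000008759 (-4.47) had 5 and 6 detected rows below them. ENSOARG00000001948, ENSOARG00000005816 and ENSOARG00000018519 lay between -3.97 and -3.79. ENSOARG00000016963 (-1.83) and ENSOARG00000007414 (-1.78) had the smallest differences of the 8, and lay above the median of the high rows but below that of all detected rows. These places among other rows describe the 3 libraries and carry no test, since each library stands alone in such a difference.

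Several marker genes were, like the leading pair, lower in library 3 than in library 1, as were the high rows in general (median -1.27). For the uterine epithelium the sum over 4 genes was 7.4 there against 54.1 in library 1. LGALS15 stood at 4.5 against 18.8, CST6 at 1.1 against 24.9 and FXYD4 at 1.8 against 10.4, while PGR was listed at 0 in both. The vesicle marker sum was 3.4 against 9.5, with CD9, its detected member, at 1.1 against 8.6. CD81, not detected, went the other way, at 2 against 0.6, while TSG101 and PDCD6IP did not differ. The extraembryonic endoderm sum was 9.6 in library 3 against 8.7, with its detected members APOA1 at 6.3 against 6 and DAB2 at 1.5 against 1.1. Of its undetected members, AFP stood at 1.3 against 0.1 and SOX17 at 0 against 1, while TTR and GATA6 did not differ. The largest rise in this sum was thus that of the undetected AFP. With no gene detected, the leukocyte sum was 4.4 against 2 and the erythroid sum 0.8 against 0.9. The trophectoderm sum was 37.4 against 38.0, with KRT8 at 27.3 against 26.3, TP-1 at 4.7 against 6.7 and S100G at 1.6 against 2.6. Of its undetected members, GATA3 stood at 3 against 0.9, CDX2 at 0 against 0.5 and ELF5 at 0.8 against 1. Against library 2, at 178.3, the trophectoderm sum was also lower in library 3. The part of any of these cell types, and of the total amount of vesicle RNA, in the levels of the 8 genes was not tested. In bulk RNA of this kind, fewer vesicles of a type and less RNA per vesicle cannot be told apart.

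**Figure D4:**
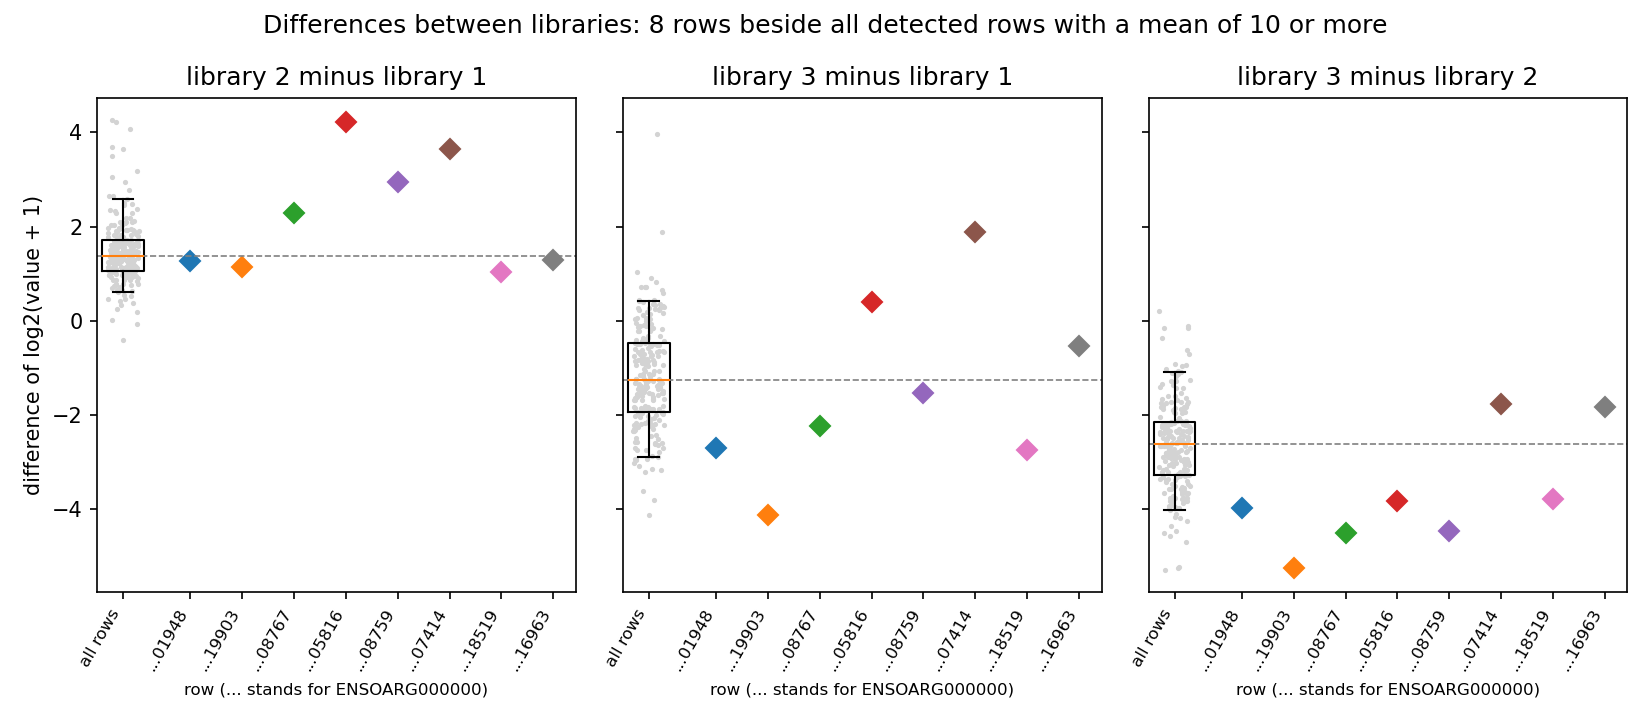
Difference of log2(value + 1) between 2 libraries in each panel. Diamonds are the 8 genes; grey points are the 228 detected rows with a mean of 10 or more, with a box for their quartiles, whiskers from the 5th to the 95th percentile and a dashed line at their median (1.37, -1.27 and -2.61). ENSOARG00000005816 and ENSOARG00000007414 stand high in the first panel, and ENSOARG00000019903 is lowest of the 8 in the other two.

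Profiles were compared among the 8 genes by the root mean square difference of log2(value + 1) over the 3 libraries, after each gene's own mean was subtracted. With only 3 points a close match is easily reached, so the distances are a description. The closest pair was ENSOARG00000001948 and ENSOARG00000018519, at 0.10. Their ratio was 10.7, 12.5 and 11.6 in libraries 1, 2 and 3. ENSOARG00000008767 and ENSOARG00000008759 came next at 0.32. The leading pair, nearly equal by mean, was farther apart at 0.64, and the most distant pair was ENSOARG00000019903 and ENSOARG00000007414 at 2.46.

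Named genes with the most similar profiles were sought by the same distance among the 138 detected rows with a symbol and a mean of 10 or more. For ENSOARG00000016963 they were GAPDH, at a distance of 0.02, and COX5A, a subunit of respiratory complex IV, at 0.03. The ratio of ENSOARG00000016963 to GAPDH was 1.16, 1.13 and 1.15 in the 3 libraries. For ENSOARG00000001948 they were EIF1, a factor of start-codon selection (0.06), and MCUR1, a regulator of the mitochondrial calcium uniporter (0.09). EIF1 stood at 47.7, 116.5 and 7.2. ENSOARG00000018519 was nearest to RPS3, a protein of the small ribosomal subunit, and to MCUR1, both at 0.06. MCUR1 stood at 17.3, 37.2 and 1.5. For rows this low in library 3, as also for CST6 below, the 1 added before the logarithm shapes the distance. Other added values were not tried for these profiles.

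The nearest named profiles of the other 5 genes were less close. ENSOARG00000008767 was nearest to PRDX5, a peroxide-reducing enzyme (0.15), and to the uterine galectin LGALS15 (0.30). ENSOARG00000019903 was nearest to the cysteine protease inhibitor CST6 (0.29; 24.9, 49.1 and 1.1) and to the ribosomal protein row RPL23A_3 (0.43). ENSOARG00000008759 was nearest to MGST1, a microsomal glutathione transferase (0.32; 17.3, 165.7 and 3.4), and to LGALS15 (0.43). ENSOARG00000007414 was nearest to DSTN, an actin-depolymerizing factor (0.46; 12.6, 80.3 and 27), and to the tetraspanin TSPAN1 (0.49). ENSOARG00000005816 had the most distant neighbours, the peroxide-reducing PRDX1 at 0.52 and the complex I subunit NDUFV2 at 0.59. ENSOARG00000005816 was low in library 1 and high in library 2, and the rest of the 138 named rows lay farther from it than these 2.

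The reads behind these values could be bounded only by assuming a length. A single read in a row as long as U6 added about 0.425, 0.55 and 0.45 to the value in the respective libraries. At that length the lowest of the 8 genes in each library would stand for 48.5, 374 and 34.4 reads, and for more in a longer gene. Gene lengths were not used here, and the authors' division of reads among similar genes is not given in the sources used here, so an unnamed gene with near-identical copies would have an uncertain level.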

How the data were processed

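Conceptus vesicles were precipitated from medium passed through a 0.2 µm filter, and 5 ng of their RNA was made into SMART-Seq v4 libraries read as paired ends of 50 bp, per the labels' protocols. The authors deposited 1 table; the submitters' processing notes name Oar_v3.1 as its build. Which aligner, counter and gene models were used is not given in the sources used here. Deposited values were taken as RPKM (FPKM would look alike), rounded to 1 decimal, because totals differ and the commonest value above 0 was 0.4 to 0.5 in U6 copies but 0.1 to 0.2 in the longer 7SK copies; the file names no unit.

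Columns were assigned by sample titles. The authors' mean differed from that of the 3 columns by at most 0.0667. Values, ranks, shares and log2(value + 1) differences were computed with Python 3.11.15, pandas 2.3.3 and numpy 2.4.6. The step of 1 read was fitted to U6 values up to 5, of which 91.9%, 86.8% and 90.8% lay within 0.1 of a whole multiple. These percentages describe the fit and do not test it, since the step was chosen on the same values. Scripts were tested on simulated data.

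With 1 group of 3 libraries, no test was made. The genes and lists were chosen with earlier results of these data known. Genes named are the 8, the next 3 by mean, FTH1, GAPDH and ACTB_1 for scale, the 2 named rows with the closest profile to each and the marker lists. A row reaching 1 in each library was called detected. Alternatives were other thresholds, pseudocounts, denominators, scalings and reference rows, and leaving out each library.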

Additional observations from a re-analysis of the deposited data

How the results depend on the processing

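The joint share of the 8 genes was between 11.3% and 19.5% when a library was left out. With 3 libraries, leaving 1 out cannot move the mean by 1 SD, so nothing is read from this range. With other denominators the joint share was between 15.7% and 22.2%, beside 14.8%. Each of them only left rows out of the summed value, so the share could only rise. Its staying within 1 SD is therefore not read as stability. With the 8 genes themselves left out, the 18.2% is a ratio of the 8 to the rest. All 8 genes were detected at thresholds of 2 and 10, and 3 at 50. Detection at 0.5 or with a library left out follows from reaching 1 in every library. Read against rows with a mean of 10 or more in place of all detected rows, 7 differences changed sign. For library 2 minus 1 they became -0.10 for ENSOARG00000001948, -0.23 for ENSOARG00000019903, -0.32 for ENSOARG00000018519 and -0.075 for ENSOARG00000016963. For library 3 minus 2 they became 0.84 for ENSOARG00000007414 and 0.78 for ENSOARG00000016963, and for library 3 minus 1 0.73 for ENSOARG00000016963. Read against all rows not at 0 in every library, no sign changed, and the differences lay between 0.94 and 4.12 for library 2 minus 1, -4.13 and 1.88 for library 3 minus 1, and -5.14 and -1.65 for library 3 minus 2. With pseudocounts of 0.1 and 0.5 that of ENSOARG00000018519 for library 2 minus 1 became -0.087 and -0.030. By the median library ENSOARG00000005816 ranked 37th of all rows in place of 5th. Scaled to a common summed value, the SD of log2(value + 1) of ENSOARG00000016963 was 0.16 in place of 0.94, and those of the other 7 lay between 1.07 and 1.87. Without library 2, ENSOARG00000005816 and ENSOARG00000007414 left the leading 8, and without library 3 ENSOARG00000016963 did. No paired analysis was possible because there was 1 group.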

Other observations

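A missing symbol did not mean a missing identity for many leading rows. Of the 100 rows with the highest mean, 44 had no symbol, and 16 of these carried a description other than an uncharacterized protein, 12 of them a ribosomal protein. In the opposite case, 371 rows of the table had a symbol although their description was only "Uncharacterized protein", 6 of them among the leading 100.

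ENSOARG00000020896, the 17th uncharacterized row by mean, had values of 3.7, 78.2 and 72.1 in libraries 1, 2 and 3 and was the 3rd highest uncharacterized row of library 3. ENSOARG00000019845 stood at 80.9, 60.8 and 24.6. It was 1 of the 63 uncharacterized rows detected with a mean of 10 or more, and the only one of them that was highest in library 1, while the other 62 were highest in library 2. Both rows were picked for mention with their values known.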
